A study of Homo sapiens with 15 samples.

Results

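FOXA1 peaks were examined in regions around 8 genes that FOXA factors are known to control in liver: ALB, AFP, FGB, FGA, FGG, SERPINA1, TTR and APOA1. The regions were chosen by position alone, as 5 windows of the hg19 genome build that hold these genes. They were chromosome 4 from 74100000 to 74500000 (ALB and AFP), chromosome 4 from 155350000 to 155650000 (FGB, FGA and FGG), chromosome 14 from 94700000 to 95100000 (SERPINA1), chromosome 18 from 29050000 to 29350000 (TTR) and chromosome 11 from 116550000 to 116850000 (APOA1). A peak belonged to a window when it overlapped it by at least 1 bp. Of the 249079 peaks in the 12 deposited lists, 117 lay in the windows, and merging overlapping peaks across lists gave 34 sites of 69194 in all. The question was whether FOXA1 induced in prostate cells was called in windows around genes of another lineage, at positions where the parental cells had no peak.

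The data were FOXA1 chromatin immunoprecipitation and sequencing (ChIP-seq) libraries of 22Rv1, an established human prostate carcinoma line, with 1 library per group. Parental cells were treated for 3 h with DMSO (0.1%), with 20 µM of a covalent small molecule called a stereoprobe (WX-02-23 in 1 group, WX-02-43 in another), or with PladB, a splicing inhibitor. A further pair of parental groups received siFOXA1, a small interfering RNA that lowers FOXA1, or its control, siControl; their dose and time are not given in the sources used here. The PladB sample's own label gives 100 nM, whereas the shared protocol gives 10 nM for parental cells. The engineered cells all overexpressed the Y36C form of PHF5A and carried a doxycycline-inducible FOXA1, either wild type (WT) or with the C258A change. For each engineered line there was 1 group given DMSO alone, 1 given DMSO after induction by doxycycline, and 1 induced and given 20 µM WX-02-23, all for 3 h; the dose and duration of doxycycline are not given in the sources used here. These groups also had FOXA1 peaks without doxycycline, and the labels give the antibody only as FOXA1, so endogenous and induced protein cannot be told apart in a peak. Whether each line was 1 clone is not given in the sources used here, and expression of prostate or liver marker genes was not analysed here.

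FOXA1 is a forkhead pioneer transcription factor, able to bind its sites in closed chromatin and to make them accessible to other factors. In prostate cells it is known for opening sites used by the androgen receptor. In liver, FOXA factors occupy enhancers and promoters of genes for secreted plasma proteins, and the family was first isolated through its binding to the promoters of TTR and SERPINA1. ALB encodes albumin, the main carrier protein of plasma, and AFP its fetal relative alpha-fetoprotein. FGA, FGB and FGG encode the chains of fibrinogen, the precursor of the blood clot. SERPINA1 encodes alpha-1-antitrypsin, an inhibitor of neutrophil elastase. TTR encodes transthyretin, a carrier of thyroid hormone and retinol-binding protein, and APOA1 the main protein of high-density lipoprotein. By the gene order of RefSeq, ALB is followed by AFP and AFM, a further albumin relative, and FGB, FGA and FGG lie next to each other between PLRG1 and LRAT. SERPINA1 lies between SERPINA6 and SERPINA11, TTR between DSG2 and B4GALT6, and APOA1 between APOC3 and SIK3.

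The forkhead words searched, on both strands, were TGTTTAC and TATTTAC as well as the variants TGTTGAC and also TATTGAC. RefSeq promoters (build GRCh38.p14, from 250 bases before to 50 after a gene's start) were found for 6 of the 8 genes, as 8 entries. A single word occurred in each of 4 of the 8 entries (50%), against 9.28% of all 35116 promoters of 300 bases. No words overlapped within an entry. The 4 entries belong to 3 genes, those of FGB hold the same word, and the difference was not tested. The entries of AFP, FGG and SERPINA1 held no word, and TTR and APOA1 had no entry and were not searched. The promoters of ALB, FGB and FGA are shown because they carry a searched word. They run 5′ to 3′ on the gene's strand, with the word, or its reverse complement, in capitals. They lie on chromosome 4 from 73404037 to 73404336 (ALB, plus strand), from 154562730 to 154563029 (FGB, plus strand) and from 154590693 to 154590992 (FGA, minus strand). The word starts at position -159 of ALB, -126 of FGB and -206 of FGA, counted from the gene's start. FGB has a second, overlapping entry that holds the same word at position -157. A match is a description of the sequence and not a bound site. The peaks have hg19 positions, and no hg19 gene annotation was used, so the distance of a peak from a promoter was not analysed here.
ALB: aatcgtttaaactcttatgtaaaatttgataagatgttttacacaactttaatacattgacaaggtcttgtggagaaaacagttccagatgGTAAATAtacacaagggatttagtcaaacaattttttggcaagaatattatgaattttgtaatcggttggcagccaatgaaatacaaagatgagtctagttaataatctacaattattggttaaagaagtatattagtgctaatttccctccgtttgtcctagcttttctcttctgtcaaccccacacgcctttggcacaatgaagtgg
FGB: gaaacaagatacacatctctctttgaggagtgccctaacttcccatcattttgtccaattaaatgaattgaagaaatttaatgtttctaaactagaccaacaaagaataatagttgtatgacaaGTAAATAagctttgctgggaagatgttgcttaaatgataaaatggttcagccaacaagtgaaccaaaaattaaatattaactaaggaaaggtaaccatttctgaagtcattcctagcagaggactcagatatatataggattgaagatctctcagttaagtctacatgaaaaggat
FGA: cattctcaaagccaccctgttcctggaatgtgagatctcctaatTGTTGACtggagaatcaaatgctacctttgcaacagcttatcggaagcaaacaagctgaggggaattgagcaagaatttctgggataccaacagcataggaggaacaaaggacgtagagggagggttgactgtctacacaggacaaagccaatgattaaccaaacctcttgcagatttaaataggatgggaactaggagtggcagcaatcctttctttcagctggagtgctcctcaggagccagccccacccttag

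Parental cells did not lack FOXA1 peaks in these windows. A peak counted anywhere in a window of 300 or 400 kb, and peaks were not assigned to genes. Neighbouring genes may lie in the same windows, so a window peak need not belong to the liver gene that names the window. The DMSO list held 15 window peaks, with at least 1 in each of the 5 windows: 7 in the ALB/AFP window, 5 in the APOA1 window and 1 in each of the others. PladB gave 19 window peaks and siControl 18, also in all 5 windows. The list of WT cells with doxycycline, of about the same total length as the parental DMSO list (31735 and 30557 peaks), held 16, and again had a peak in all 5 windows. The list of C258A cells with doxycycline held 7 in 3 windows, of 13299 in all. Without doxycycline there were 4 window peaks in WT and 6 in C258A cells, of 8575 and 12752.

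The window counts were set beside what each list held elsewhere. When the genome was divided into consecutive tiles of each window's length, the mean tile counts added up over the 5 windows to 16.8 peaks for parental DMSO, 17.4 for WT and 7.30 for C258A cells with doxycycline, and 4.71 and 6.998 for the same lines without it. In the regions of equal length on both sides of the windows, which together are 2 times as long, these lists held 35, 39, 13, 14 and 20 peaks in the same order. The window counts were thus near the tile means, while each of these lists except that of C258A cells with doxycycline was denser in the flanks than in the windows. With 1 library in a group and no read totals, differences between groups could not be tested. With the parental DMSO list and the 4 doxycycline lists at 13299 peaks each, the window counts were 6 for parental DMSO, 5 for WT and 7 for C258A cells with doxycycline, so the larger number in WT than in C258A cells was not seen at equal length.

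**Figure D1:**
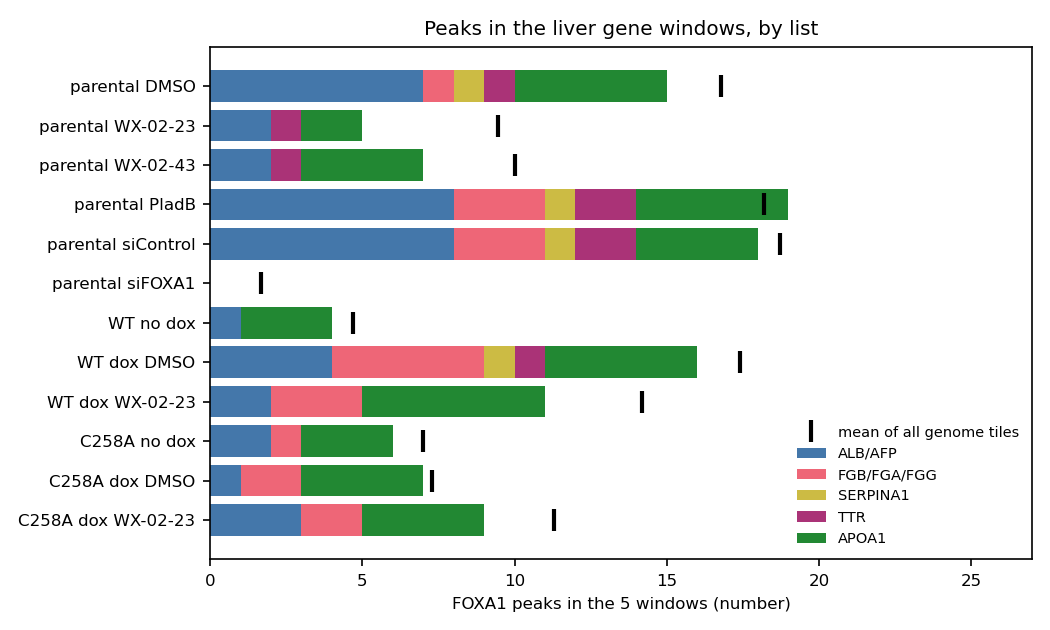
Number of FOXA1 peaks (x axis) in the 5 liver gene windows for each of the 12 lists (y axis), 1 library each, with bar segments by window; vertical ticks give the mean count of genome tiles of the same lengths, added over the windows. Parental DMSO (15) and WT with doxycycline and DMSO (16) have similar totals, but the ALB/AFP segment is longer in the first and the FGB/FGA/FGG segment in the second.

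Part of the induced peaks lay where no parental list had one. Of the 16 WT window peaks with doxycycline and DMSO, 10 (62.5%, Wilson 95% interval 38.6 to 81.5%) overlapped no peak of any of the 6 parental lists. Over the whole list this share was 58.9%, which lies inside the interval for the windows. In C258A cells it was 3 of 7 (42.9%, 15.8 to 75.0%), against 55.5% of the whole list. With doxycycline and WX-02-23, 5 of 11 WT peaks (45.5%) and 4 of 9 C258A peaks (44.4%) had no parental partner, against 59.0% and 56.3% of those lists. Without doxycycline, 0 of 4 WT and 0 of 6 C258A window peaks lacked a parental partner, against 1.60% and 3.45% of the lists. These intervals reflect the number of peaks counted and nothing else, and neighbouring peaks may not be independent.

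Merged across lists, 12 of the 34 sites (35.3%, 21.5 to 52.1%) were called with doxycycline only, against 36.0% of all sites of the series. Another 15 (44.1%, 28.9 to 60.5%) were called only in lists without doxycycline, parental cells included, against 42.2%, and 7 (20.6%, 10.4 to 36.8%) in both, against 21.8%. Called in parental lists and in no engineered list were 14 sites (41.2%), against 36.1%. A total of 12 sites (35.3%) were called in 1 list only, against 29.6%, and these have no second library behind them. In each of these classes the interval for the windows includes the share of the whole series.

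**Figure D2:**
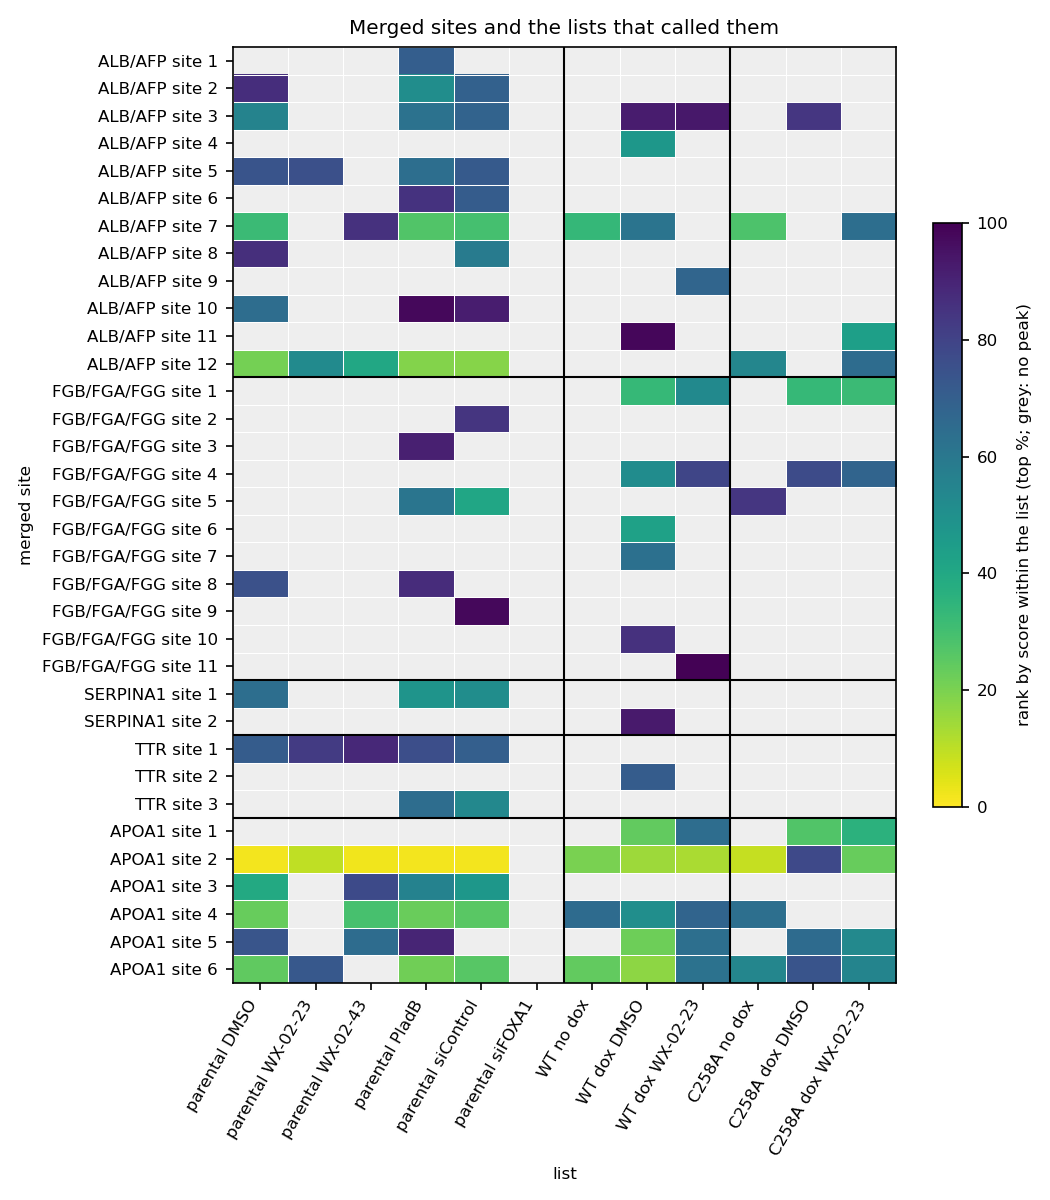
The 34 merged sites (rows, grouped by window and numbered along the chromosome) in the 12 lists (columns, 1 library each); colour gives the rank of the peak's score within its own list as a top percentage, and grey marks no peak. The FGB/FGA/FGG window has no site shared by lists with and without doxycycline, and APOA1 site 2 is called in every list except siFOXA1.

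In the fibrinogen window no site was called both with and without doxycycline. It held 11 sites, of which 6 were called with doxycycline only (54.5%, 28.0 to 78.7%), 5 only in lists without doxycycline (45.5%, 21.3 to 72%) and 0 in both (upper limit 25.9%). These intervals include the 36.0%, 42.2% and 21.8% of all sites, and the window was picked out of 5 after its values were seen. All 5 WT peaks with doxycycline and DMSO (100%, 56.6 to 100%) and both C258A peaks lacked a parental partner; the WT interval includes the 58.9% of the whole list. The 6 doxycycline-only sites lay between 5.13 and 41.9 kb from the nearest site called without doxycycline. Parental DMSO had 1 peak here, and PladB and siControl 3 each. WT cells without doxycycline had none, and C258A cells without it had 1. Of all genome tiles of this length, 26% held 5 or more peaks of the WT list, and the flanks of this window, 2 times as long, held 2.

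Sites 1 and 4 of this window were called in all 4 doxycycline lists and in no other, as was site 1 of the APOA1 window. That makes 3 of the 34 sites (8.82%, 3.05 to 23.0%), against 6.91% of all sites. Fibrinogen site 1, on chromosome 4 from 155383972 to 155384586, scored 275 in WT and 221 in C258A cells with DMSO, and 166 and 257.95 with WX-02-23. The score is the authors' value for each peak, with no stated definition and no value below 90 in any list, and it is compared only within a list. In its 4 lists site 1 ranked among the top 33.1% (WT DMSO), 33.1% (C258A DMSO), 52.4% (WT WX-02-23) and 31.8% (C258A WX-02-23) of peaks. Site 4, from 155474594 to 155475248, scored 187 in WT and 115 in C258A cells with DMSO, and 113 and 133 with WX-02-23. Site 4 ranked between the top 51.5% and the top 79.2% of its lists, so neither site stood near the top of any.

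The remaining fibrinogen sites were called in few lists. Site 6, from 155535077 to 155535762 with a score of 221, was called only in WT cells with doxycycline and DMSO, as were sites 7 and 10, which fall outside the rule for named sites and were added after their values were seen. Site 11, from 155623649 to 155624039, was called only in WT cells with WX-02-23, with a score of 90.4 near the lower end of the list. The only parental DMSO peak was site 8, from 155557443 to 155558065, with a score of 135, which PladB also gave.

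The albumin window held 12 sites. Of these, 6 were called only in lists without doxycycline (50%, 25.4 to 74.6%), 3 in both kinds of list and 3 with doxycycline only (each 25%, 8.89 to 53.2%), and these intervals too include the shares of all sites. Parental DMSO had 7 peaks here and PladB and siControl 8 each, against 4 in WT and 1 in C258A cells with doxycycline and DMSO. Among genome tiles of this length, 18.9% held 7 or more parental DMSO peaks and 46.9% held 4 or more WT peaks. The highest parental DMSO score was at site 12, on chromosome 4 from 74485761 to 74486849, with 567 (top 20.8% of the list). It was called in all parental lists except siFOXA1, and in C258A cells without doxycycline and with doxycycline and WX-02-23. It was not called in any of the 3 WT lists.

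Sites 3, 4 and 5 of the albumin window lay next to each other and each had its own pattern. Site 3, from 74264142 to 74264892, scored 202 with parental DMSO (top 55.2% of the list), 173 with PladB (62.38%) and 152 with siControl (67.99%). It scored 99.1 in WT (top 92.2%) and 106 in C258A cells (84.3%) with doxycycline and DMSO, and 96.2 in WT cells with WX-02-23 (93.54%). Site 4, from 74267007 to 74267588, was called only in WT cells with doxycycline and DMSO, with a score of 202, at 1.85 kb from the nearest site called without doxycycline. Site 5, from 74269443 to 74270294, was called in parental cells with DMSO, PladB, siControl and WX-02-23 and in no engineered list; it falls outside the rule for named sites and was singled out after its values were seen.

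Site 7 of the same window, from 74299909 to 74300652, was called in 8 lists. Its score was 379 with parental DMSO (top 31.75% of the list), 448 with PladB (27.04%), 405 with siControl (29.43%) and 108 with WX-02-43 (85.85%). In WT cells it was 215 without doxycycline (top 33.43%) and 156 with doxycycline and DMSO (61.62%), and there was no peak with WX-02-23. In C258A cells it was 322 without doxycycline (top 28.08%) and 141 with doxycycline and WX-02-23 (64.03%), with no peak under doxycycline and DMSO. Site 11, from 74438339 to 74438932, was called with doxycycline only, in WT cells with DMSO (score 92.1) and in C258A cells with WX-02-23 (score 200).

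The SERPINA1 and TTR windows were sparse, with 2 and 3 sites. None was called both with and without doxycycline, but with so few sites the upper limits are 65.8% and 56.1%, against 21.8% of all sites. In the SERPINA1 window, site 1 on chromosome 14 from 94786367 to 94787106 was called with parental DMSO (score 169), PladB (236) and siControl (220) and in no engineered list. These peaks ranked in the top 63.69%, 48.4% and 50.98% of their lists. Site 2, from 94904822 to 94905354, was called only in WT cells with doxycycline and DMSO, with a score of 98.1, and lay 117.7 kb from the nearest site called without doxycycline. Of all genome tiles of this length, 81.9% held at least 1 peak of the WT list and 86.9% at least 1 of the parental DMSO list.

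In the TTR window, site 1 on chromosome 18 from 29171431 to 29172083 was called in 5 parental lists. Its scores were 146 with DMSO, 132 with PladB, 147 with siControl, 113 with WX-02-23 and 104 with WX-02-43. In the same order it ranked in the top 70.87%, 76.09%, 69.78%, 82.47% and 88.62% of these lists. It was not called in any of the 6 engineered lists. Site 2, from 29217238 to 29217869, was called only in WT cells with doxycycline and DMSO (score 134). Site 3, from 29303801 to 29304484, was called with PladB (165) and siControl (208). The C258A line had no peak in either window in any of its 3 lists, and neither did WT cells without doxycycline or with doxycycline and WX-02-23. Of the genome tiles of these lengths, 63.2% and 55.7% held a peak of the C258A list with doxycycline and DMSO, so empty tiles were common. The flanks of the TTR window were denser than the window itself, with 13 parental DMSO peaks, 10 WT and 2 C258A peaks with doxycycline and DMSO.

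**Figure D3:**
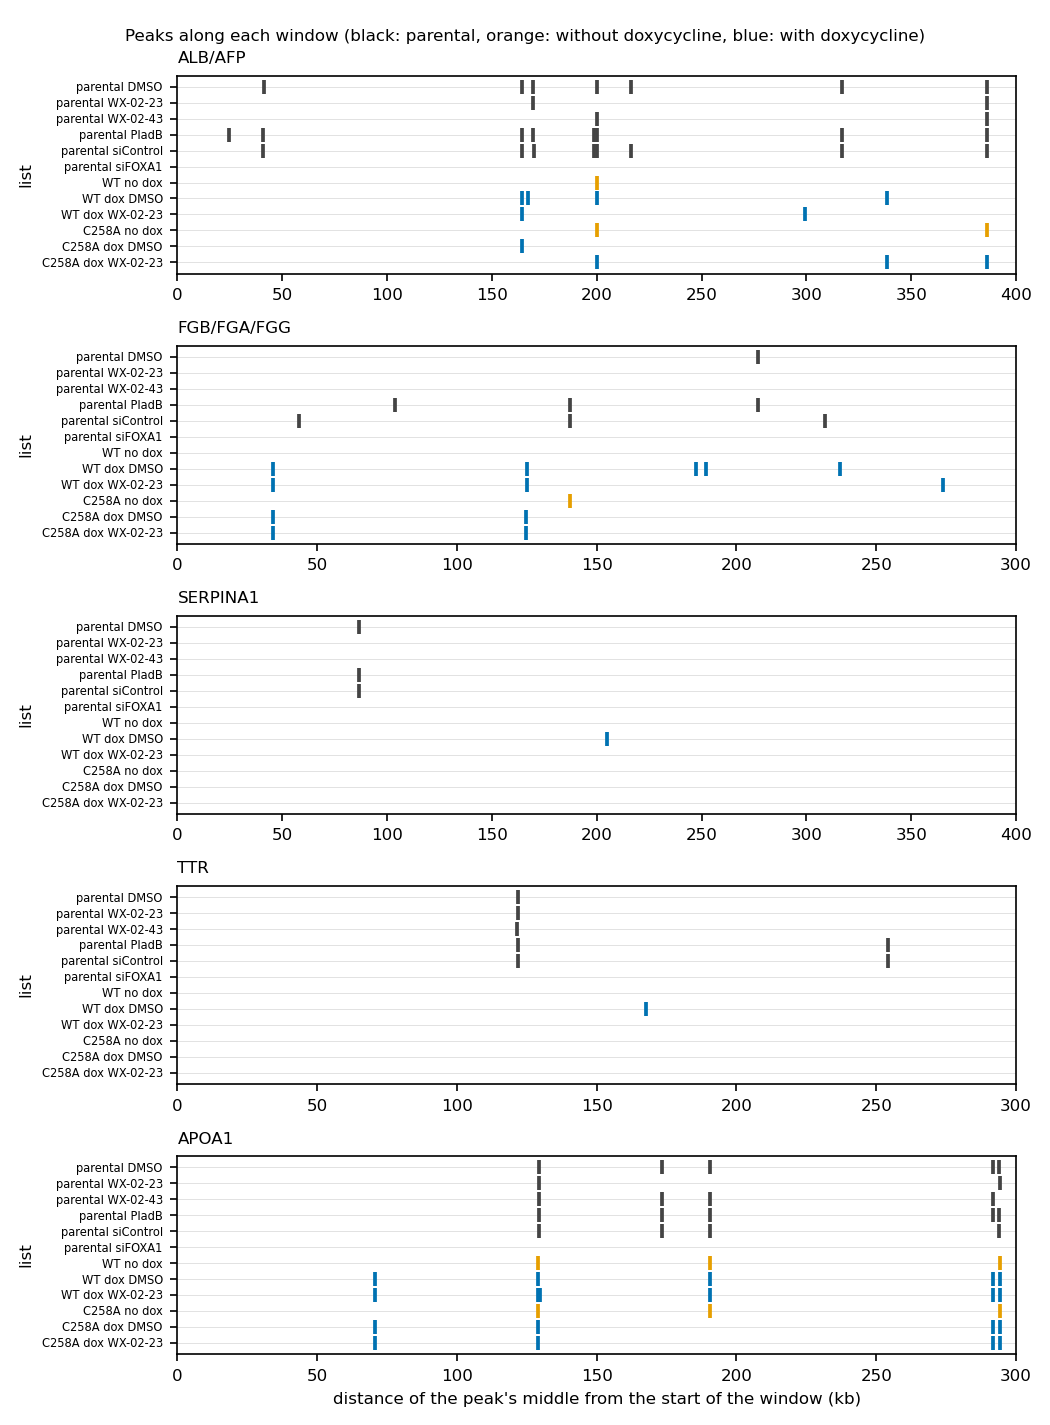
Position of each peak's middle (x axis, kb from the start of the window) in the 12 lists (rows, 1 library each) for the 5 windows; black is parental, orange engineered without doxycycline, blue with doxycycline. Blue and black marks coincide at most APOA1 sites and at none of the fibrinogen, SERPINA1 or TTR sites.

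The APOA1 window was the one in which parental and induced calls coincided most. Of its 6 sites, 4 were called both with and without doxycycline (66.7%, 30.0 to 90.3%, against 21.8% of all sites), 1 with doxycycline only and 1 in parental lists only. The window was picked out of 5 after its values were seen, and this difference was not tested. Sites 5 and 6 lie near the window's end and are lost when the windows are narrowed by 50 kb.

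Site 2 of this window, on chromosome 11 from 116678540 to 116680334, had the highest score among the window peaks of every list that had any, except C258A cells with doxycycline and DMSO, where 5 other window peaks scored higher. In parental cells it scored 2419 with DMSO (rank 497 of 30557), 2168 with PladB (581 of 33121) and 2011 with siControl (629 of 34119). With WX-02-43 it scored 1372 (382 of 18228) and with WX-02-23 743 (1643 of 17217). In WT cells it scored 307 without doxycycline (1720 of 8575), 496 with doxycycline and DMSO (4632 of 31735) and 467 with WX-02-23 (3271 of 25849). In C258A cells it scored 776 without doxycycline (1103 of 12752), 114 with doxycycline and DMSO (10365 of 13299) and 321 with WX-02-23 (4802 of 20609). It was called in every list except siFOXA1, a pattern shared by 3.62% of all sites and by 1 of the 34 window sites. Within its list it stood lowest in C258A cells with doxycycline and DMSO.

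Site 1 of the APOA1 window, from 116620505 to 116621125, was the strongest of the doxycycline-only sites in the WT DMSO list. It scored 352 in WT and 249 in C258A cells with DMSO, and 138 and 234 with WX-02-23, and lay 57.4 kb from the nearest site called without doxycycline. In the same order it ranked in the top 23.89%, 27.33%, 64.13% and 35.91% of these lists. Site 3, from 116723043 to 116723798, was called in 4 parental lists (score 301 with DMSO) and in no engineered list. Site 4, from 116740075 to 116741056, was called in parental cells (518 with DMSO), in both lines without doxycycline, and with doxycycline in WT cells only. Site 5, from 116841534 to 116842232, was called in all 4 doxycycline lists and in parental cells with DMSO (139), WX-02-43 and PladB. Site 6, from 116843296 to 116844675, was called in 10 lists, with scores of 491 with parental DMSO and 450 in WT cells with doxycycline and DMSO. These peaks ranked in the top 24.52% and 16.86% of their lists.

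Peaks of lists without doxycycline were then looked up in the doxycycline lists, which come from separate libraries. All 4 WT window peaks without doxycycline were still called with it (100%, 51.0 to 100%), against 73.3% of the list, which lies inside the interval. In C258A cells 2 of 6 were (33.3%, 9.68 to 70.0%), against 35.2%, and both were in the APOA1 window. Of the 15 parental DMSO peaks, 6 (40.0%, 19.8 to 64.3%) were called in WT cells with doxycycline and DMSO, against 36.6% of the list, and 4 (26.7%, 10.9 to 52.0%) in C258A cells, against 17.3%. Engineered and parental cells also differ by the altered PHF5A, so cell line and induction cannot be told apart in these shares. All 7 C258A window peaks with doxycycline and DMSO were also WT peaks, as were 93.6% of the list, so no C258A window peak lacked a WT partner there.

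The stereoprobes were compared with DMSO in parental cells at 20 µM and 3 h. With WX-02-23, 5 of the 15 DMSO peaks were called (33.3%, 15.2 to 58.3%), against 47.2% of the whole list. With WX-02-43 it was 7 (46.7%, 24.8 to 69.9%), against 55.5%. PladB kept 14 (93.3%) and siControl 13 (86.7%), against 88.2% and 88.1%. Both stereoprobe lists were without a peak in the SERPINA1 and fibrinogen windows, where parental DMSO had 1 each. Of genome tiles of these 2 lengths, 77.4% and 70.1% held a WX-02-23 peak. For WX-02-43 it was 79.0% and 71.7%, so empty tiles were not rare. Absent from the DMSO list were 0 of 5 WX-02-23 window peaks (upper limit 43.45%), against 15.5% of the list. For WX-02-43 it was 0 of 7 (upper limit 35.4%), against 6.10%. Both limits include the share of the whole list. The compounds shared albumin site 12, TTR site 1 and APOA1 site 2. Albumin site 5 and APOA1 site 6 were called with WX-02-23 and not WX-02-43, and albumin site 7 and APOA1 sites 3, 4 and 5 with WX-02-43 and not WX-02-23. With 1 library per compound this difference could not be tested.

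With doxycycline, WX-02-23 left 8 of 16 WT window peaks (50%, 28 to 72%, against 60.7% of the list) and 6 of 7 C258A peaks (85.7%, 48.7 to 97.4%, against 90.8%). The WT peaks that were not called lay in the albumin (3), fibrinogen (3), SERPINA1 (1) and TTR (1) windows, and all 5 APOA1 peaks were called. The C258A peak that was not called was albumin site 3. Absent from the DMSO list of the same line were 3 of 11 WT peaks with WX-02-23 (27.3%, 9.75 to 56.6%, against 24.6%) and 3 of 9 C258A peaks (33.3%, 12.1 to 64.6%, against 41.5%). The C258A ones were at albumin sites 7, 11 and 12, and the WT ones at albumin site 9, fibrinogen site 11 and the upper part of APOA1 site 2; site 9 was added after its values were seen. At 13299 peaks per list, the WT share left with WX-02-23 was 1 of 5 (20.0%, 3.62 to 62.45%). The C258A share was 5 of 7 (71.4%, 35.9 to 91.8%). The share of the whole list was not computed at this length, so these values have no background beside them.

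**Figure D4:**
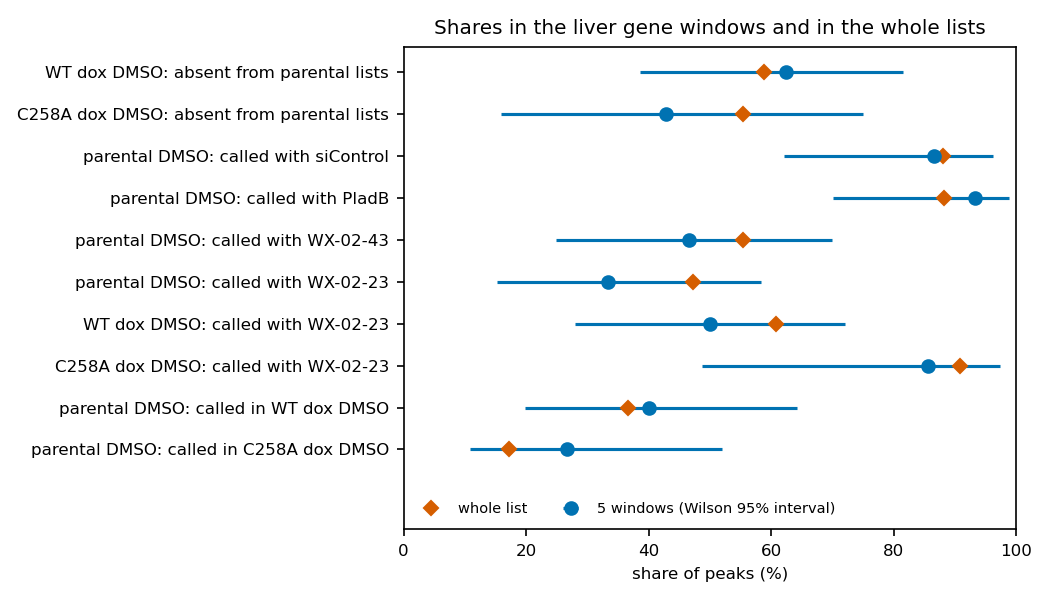
Share of peaks (x axis, %) in 10 comparisons (y axis) for the 5 windows together (circles with Wilson 95% intervals) and for the whole list (diamonds), 1 library per list. In each comparison shown, the interval for the windows includes the share of the whole list.

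After FOXA1 knockdown no peak was listed in the windows. This is 0 of 3018 siFOXA1 peaks. Allowing 3 peaks for a count of 0, the share could be up to 0.0994%. That limit is above the window share of every other list, which ran from 0.0290 to 0.0574%. With siFOXA1, 0 of the 18 siControl window peaks were called (Wilson upper limit 17.6%), against 3.84% of the siControl list. The mean tile counts of the siFOXA1 list added up to 1.66 peaks over the 5 windows, so few window peaks would be called from so short a list at its mean density.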

How the data were processed

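FOXA1 ChIP-seq was deposited as 12 peak lists, 1 per library, so peaks were not pooled; 3 input samples were not analysed here. Per the submitters' processing notes, bcl2fastq, Bowtie2 and the build hg19 were used. The peak names begin with MACS; the caller's version, threshold and control are not given in the sources used here. Each line held a position and the authors' deposited score, undefined and never below 90. Starts were read as counted from 0 and are printed counted from 1. Read totals are unknown, so depth and binding cannot be told apart in the length of a list.

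Peaks shared a site when they overlapped by at least 1 bp, and shares carry Wilson 95% intervals (scipy 1.17.1, python 3.11.15). The limit on the window share of the siFOXA1 list instead allowed 3 peaks for a count of 0. Overlap, merging and window counts were tested on simulated lists. Tiles were counted by peak centre from position 0 to the last peak of each chromosome, unassembled stretches included. Sites named were, per window, up to 3 with the highest WT doxycycline score and no parental peak, up to 3 with the highest parental DMSO score, up to 2 gained with WX-02-23, those called with siFOXA1 or in every list but siFOXA1, and all sites of windows with 8 or fewer. The windows, genes and rules were chosen with earlier results of these data known. Alternatives were list length, score, overlap, window edges and reference lists. The planned motif search in peaks was not run because no hg19 genome was used; the search in RefSeq promoters was added after seeing the data.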

Additional observations from a re-analysis of the deposited data

Results flagged for a closer look

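The number of window peaks moved in opposite directions with WX-02-23 in the engineered lines with doxycycline. It changed by -5 in WT cells, from 16 to 11, and by 2 in C258A cells, from 7 to 9. Each value rests on 1 library per condition, and the difference between the lines was not tested. The whole lists moved the same way, by -5886 and by 7310 peaks. With the lists at 13299 peaks each, the window counts went from 5 to 1 in WT cells and stayed at 7 in C258A cells. Tile means and flank counts are given for the full lists only, so these trimmed counts have no background beside them. Whether they are particular to the liver gene windows was not tested. In the full lists, the summed tile means fell from 17.4 to 14.2 for WT. For C258A they rose from 7.30 to 11.3, the same direction as the full window counts. These means scale with the length of the list, so they add nothing beyond the list changes.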

How the results depend on the processing

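For 10 results, 53 alternative values were computed; 34 of them kept to the reported share's interval or to 1.5 times the reported count, and 19 did not. No alternative could be tested. Those for the merged sites were chosen after seeing the data. Keeping the top 50% of each list by score moved the window peaks to 7 in WT, 2 in C258A (both with doxycycline and DMSO) and 6 in parental DMSO, WT peaks left with WX-02-23 to 14.3%, and the C258A shares absent from parental lists and left with WX-02-23 each to 100% of 2 peaks. Merged sites then became 6 with doxycycline only, 2 in both and 6 without doxycycline only. Equal list length, at 13299 peaks, gave 5 WT and 6 parental DMSO window peaks, 20.0% of WT peaks left with WX-02-23, and 5, 4 and 5 merged sites in the same order. The siFOXA1 list and the WT and C258A lists without doxycycline had fewer peaks (3018, 8575 and 12752) and were kept whole. Shorter lists hold fewer window peaks by construction. Narrowing the windows by 50 kb at both ends gave 4 C258A peaks and 4 sites in both; widening them by 50 kb gave 26 WT peaks and 11 sites in both. Reciprocal overlap of 50%, a gap of 500 bp, the peak centre, other parental reference lists and leaving out the C258A list with doxycycline and DMSO moved no value beyond these limits. WT shares absent from parental lists ranged from 40.0 to 71.4%. No paired analysis was possible because each group had 1 library. The small numbers, limit what the windows can show.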

Other observations

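Peak widths are given for sites of the APOA1 window, chosen after their values were seen. At site 2, the parental peak was 1560 bp wide under DMSO. It was 1595 bp under WX-02-23, 1618 bp under WX-02-43, 1795 bp under PladB and 1748 bp in the siControl list. In engineered lists the peaks at its lower end were between 519 and 784 bp wide, and none reached past position 116679502. The upper part held a separate peak, from 116679587 to 116680082, only in WT cells with doxycycline and WX-02-23. At site 6, peaks were 1168 bp with parental DMSO, 1364 with PladB and 1257 with siControl, and between 484 and 725 in engineered lists, but the parental WX-02-23 peak was narrower than all of these, at 388. At site 5 the WT peak with doxycycline and DMSO, at 644 bp, was wider than those of parental DMSO (590) and WX-02-43 (597). It was narrower than that of parental PladB (661). Over all WT peaks with doxycycline and DMSO that overlap a single parental DMSO peak, the median width was 79.4% of that peak's, and in C258A cells 57.2%, against 87.0% and 56.4% in the windows (6 and 4 pairs). Without doxycycline the medians were 47.64% in WT and 65.68% in C258A cells. In the windows they were 52.49% and 55.62% (4 and 5 pairs). These width differences were not tested.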
